A study of Mus musculus with 6 samples.

Results

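The genes described here build and drive the mitotic machine: the spindle checkpoint, the anaphase-promoting complex and its partners, the kinetochore, the chromosomal passenger complex, the spindle and its poles, the contractile ring, and condensin. The list holds 39 named genes, each represented by the probe set with the highest mean signal over all 6 arrays, out of 11625 genes tested in megakaryocyte progenitors (MkP) of the mouse. MkP from fetal livers at E13.5 were set against MkP from the bone marrow of adult mice aged 12 to 18 weeks, with 3 arrays in each group. All mice were wild-type C57BL/6, and no treatment or engineered allele is given for either group. Cells of both tissues were sorted as lin-, Sca-1-, c-kit+, CD150+ and CD41+ (the study's gate for MkP), total RNA was extracted, and 1 Affymetrix array was hybridised per sample. The labels name the samples biological replicates without a count of animals or embryos, so each p-value covers the spread between samples of unknown pooling. In bulk samples like these, fewer cells in mitosis and less RNA per cell cannot be told apart.

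In mitosis each chromosome is compacted by condensin, captured by spindle microtubules at its kinetochores and held back from separation by the spindle checkpoint until all chromosomes are attached. The anaphase-promoting complex then releases the sister chromatids, and a ring of actin and myosin II, positioned by the central spindle and by RhoA, cuts the cell apart. Megakaryocytes use this machine in an unusual way: progenitors divide, whereas maturing megakaryocytes enter mitosis repeatedly, fail in late anaphase or cytokinesis and become polyploid, which is called endomitosis. Megakaryocytes of the fetal liver are known to be smaller and of lower ploidy than those of adult marrow.

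Many genes of the late cell cycle carry a CHR element (cell cycle genes homology region, TTTGAA or TTTAAA) and CCAAT boxes close to their start, which are bound by the DREAM complex or B-MYB and by NF-Y. RefSeq promoter windows (GRCm38.p6, 250 bases before to 50 bases after a gene's start) were found for 34 of the 39 genes. Aurkb, Incenp, Smc4, Spc24 and Tpx2 had none. A CHR element and a CCAAT box, searched as these letters on both strands and allowed to share a base, were both present in the windows of 20 of the 34 genes (58.8%), against 12.2% of all genes with a window. The shares were 70.6% against 30.6% for a CHR element and 70.6% against 41.1% for CCAAT. The 150 bases before the start are shown for 6 genes, in each role the gene with the smallest p of the tissue comparison among those with both motifs in this stretch, and no passenger complex gene met this. Capitals mark the motif letters, and ATTGG and TTCAAA are CCAAT and TTTGAA on the opposite strand.
Bub3: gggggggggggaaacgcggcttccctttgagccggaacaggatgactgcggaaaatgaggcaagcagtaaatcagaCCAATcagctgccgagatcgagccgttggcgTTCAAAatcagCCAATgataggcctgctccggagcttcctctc
Cdc20: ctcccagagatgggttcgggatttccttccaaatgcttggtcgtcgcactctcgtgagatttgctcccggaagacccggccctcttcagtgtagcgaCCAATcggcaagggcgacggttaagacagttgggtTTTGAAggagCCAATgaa
Cenpa: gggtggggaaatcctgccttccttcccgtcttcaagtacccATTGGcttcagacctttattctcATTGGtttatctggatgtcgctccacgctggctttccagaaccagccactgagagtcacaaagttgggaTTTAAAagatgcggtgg
Plk1: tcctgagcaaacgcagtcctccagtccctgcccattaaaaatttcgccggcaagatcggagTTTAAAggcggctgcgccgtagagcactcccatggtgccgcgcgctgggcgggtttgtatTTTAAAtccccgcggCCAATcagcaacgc
Ect2: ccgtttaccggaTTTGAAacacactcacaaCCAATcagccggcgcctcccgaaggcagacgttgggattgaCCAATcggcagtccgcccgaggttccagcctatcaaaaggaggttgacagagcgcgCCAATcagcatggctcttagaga
Ncapd2: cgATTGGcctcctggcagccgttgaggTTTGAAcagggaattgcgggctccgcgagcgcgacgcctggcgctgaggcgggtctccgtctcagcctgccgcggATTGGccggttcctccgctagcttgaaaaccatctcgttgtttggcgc

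These stretches lie at chr7:131560220-131560369 on the plus strand for Bub3, chr4:118437344-118437493 on the minus strand for Cdc20, chr5:30666736-30666885 on the plus strand for Cenpa, chr7:122159285-122159434 on the plus strand for Plk1, chr3:27153855-27154004 on the minus strand for Ect2 and chr6:125191587-125191736 on the minus strand for Ncapd2. Each is written 5′ to 3′ along its own gene. The CHR element began 18 bases before the start in Cdc20 and 17 bases before it in Cenpa, where it had the letters TTTAAA. Plk1 held the TTTAAA form at 89 and at 29 bases before the start, with a CCAAT box 14 bases before it. In Ect2 the element lay far upstream, 138 bases before the start, followed by CCAAT boxes at 120, 79 and 23 bases. A match of letters is a description of the sequence and not a site of binding. Both motifs were in the windows of 4 of the 13 genes whose arrays did not overlap between tissues (called separated here) and in 16 of the 21 whose arrays overlapped. The separated genes Aurkb, Spc24 and Tpx2 had no window and are not in these counts.

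Most of the mitotic genes had somewhat higher mean signals in fetal liver MkP than in marrow MkP, and few of these differences passed the test. All 39 genes passed the filter on low signals, and all lay above the bacterial control probe sets on every array, with signals between 215 and 23664. Of the 39 genes, 1 passed the threshold of 0.05 on the adjusted p of limma's test as higher in fetal liver MkP (Tpx2), where 3.01% of all genes did, and 0 passed as lower, where 4.76% of all genes did. At an unadjusted p under 0.05 limma counted 13 as higher, where 10.7% of all genes were, and 0 as lower, where 12.1% of all genes were. The 3 fetal liver arrays all lay above the 3 marrow arrays for 16 genes (41.0%), against 13.8% of all genes, and all below them for 0 genes, against 14.2% of all genes. The change, given here as fetal liver minus marrow on the log2(signal + 2.87) scale, was positive for 34 of the 39 genes, where 50.5% of all genes were positive. It had a median of 0.30 and ran between -0.23 and 1.23, and the median over all genes was 0.01.

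**Figure D1:**
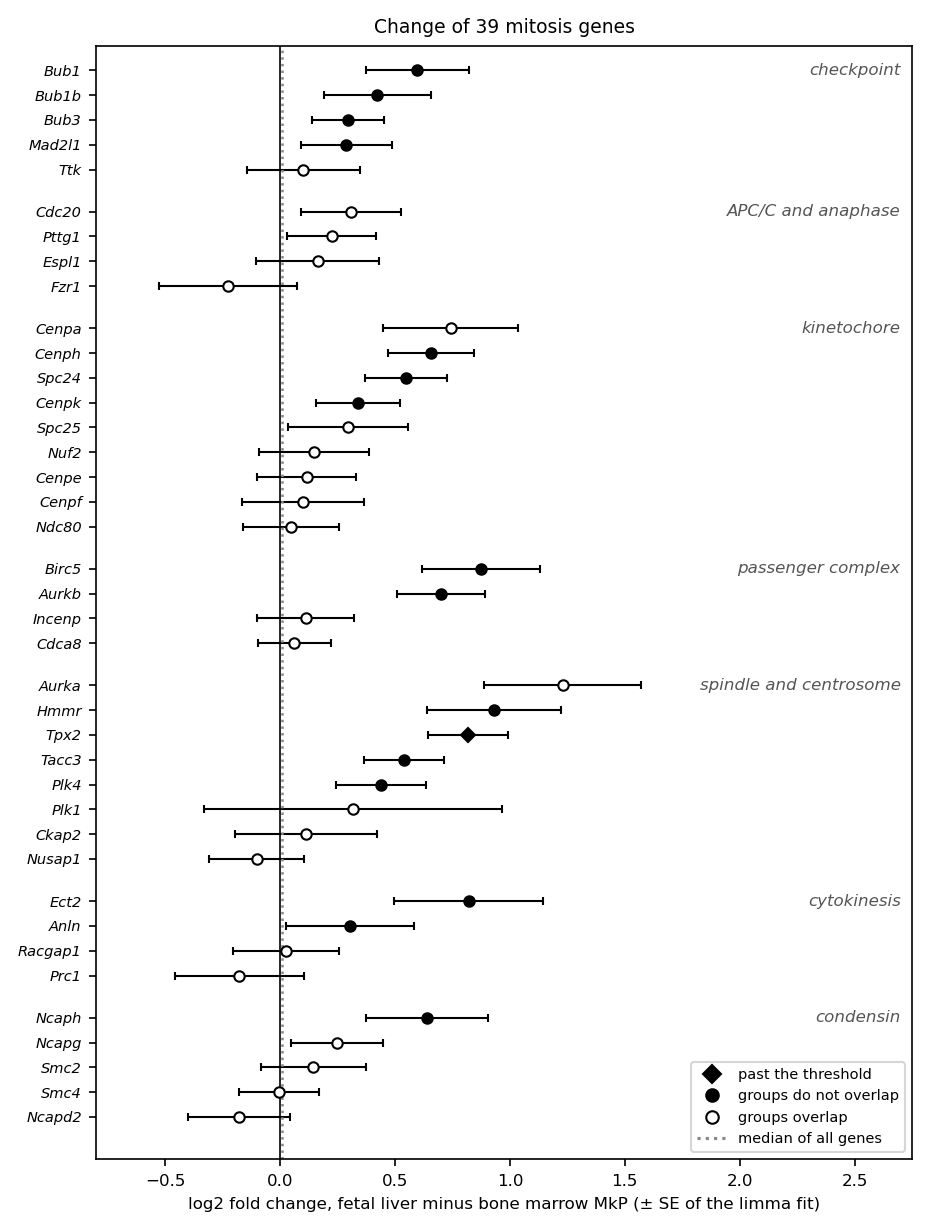
Log2 fold change (fetal liver minus bone marrow MkP) on the horizontal axis with the standard error of the limma fit as bars, for the 39 genes grouped by role. The filled diamond is Tpx2, which passed the threshold, filled circles are the other genes whose 3 fetal liver arrays all lay above the 3 marrow arrays, and open circles are genes whose groups overlapped. Changes run between -0.23 and 1.23, and the dotted line marks the median of all genes at 0.01.

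The positive side of this pattern depends in part on scaling. The deposited arrays share a trimmed mean of 500 but not a median: the median signal was 64.2 ± 1.34 on fetal liver arrays and 76.9 ± 3.06 on marrow arrays (SD, n = 3 each; exact two-sided permutation p = 0.1, the smallest that 3 against 3 allows, and 0.2 after adjustment over 4 array measures). With each array centred on its median instead, the median change was 0.26 over all genes and 0.55 over the 39 genes. Centring shifts the change of every gene by the same amount. The gap of 0.29 above all genes therefore stays by construction and is not checked by it. All 39 changes were then positive and 9 genes passed the threshold (Aurka, Aurkb, Birc5, Bub1, Cenph, Hmmr, Spc24, Tacc3 and Tpx2), where 7.72% of all genes passed as higher.

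**Figure D2:**
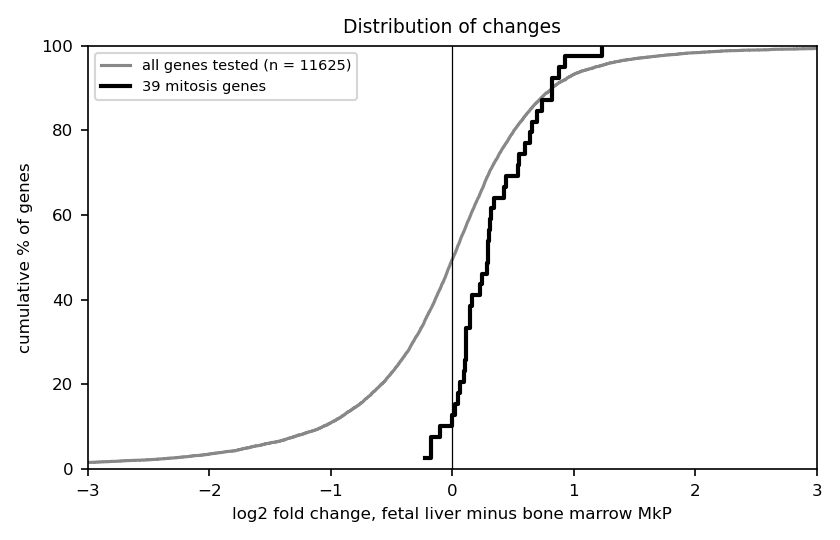
Cumulative percent of genes (vertical axis) against the log2 fold change, fetal liver minus bone marrow MkP (horizontal axis, drawn between -3 and 3), for all 11625 genes tested and for the 39 mitosis genes. The curve of the mitosis genes begins at -0.23 and ends at 1.23, with its median at 0.30, while all genes spread to both sides of a median of 0.01.

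The markers of the labelled cell type were present in both groups, and markers of other cells differed between them. All 7 measured genes of the sort and megakaryocyte list (Itga2b, Kit, Slamf1, Pf4, Gp9, Gp1bb and Vwf) were above background on all 6 arrays. Their summed signal was 23894 to 28707 on fetal liver arrays and 32386 to 35978 on marrow arrays, and most of each sum was Pf4. Gp9 was separated in the opposite direction, with 299, 331 and 396 in fetal liver MkP and 234, 216 and 282 in marrow MkP. Limma called 0 of the 7 at the adjusted threshold and 2 as lower in fetal liver MkP at an unadjusted p under 0.05. Of 10 erythroid genes tested, 5 passed as higher in fetal liver MkP, with summed signals over 11 genes of 15835 to 30962, against 6810 to 11316 in marrow MkP, and the embryonic globins Hbb-y and Hbb-bh1 were not above background on any marrow array. All 11 tested granulocyte and monocyte genes passed as lower in fetal liver MkP. The summed signals over 13 genes were 4812 to 6919 in fetal liver MkP, against 45963 to 71647 in marrow MkP. Ltf, Chil3, Csf3r and Itgam were not above background on any fetal liver array, and Itgam was above it on only 1 marrow array. Macrophage genes summed to 316 to 455 over 9 genes in fetal liver MkP and 1811 to 3614 in marrow MkP (3 of 5 tested lower). Mast cell, basophil and eosinophil genes summed to 2326 to 6230 over 8 genes in fetal liver MkP and 8503 to 12587 in marrow MkP (3 of 6 tested lower). Most of each sum was Gata2, with 2082, 5797 and 6110 in fetal liver MkP and 6838, 9979 and 8919 in marrow MkP. Mcpt8, Prg2, Epx and Fcer1a were not above background on any fetal liver array. Lymphoid genes summed to 430 to 644 over 11 genes in fetal liver MkP and 949 to 1362 in marrow MkP (1 of 4 tested lower). Hepatocyte genes summed to 675 to 3727 over 8 genes in fetal liver MkP and 261 to 716 in marrow MkP (1 of 6 higher). Most of the highest sum was Afp, with 362, 2793 and 265 in fetal liver MkP and 457, 28 and 444 in marrow MkP. The part of these other cells in the values of the mitotic genes was not tested.

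The spindle checkpoint holds anaphase until every kinetochore is attached. All 5 of its genes had positive changes (median 0.30), where 50.5% of all genes were positive. Of the 5, 4 were separated as higher, where 13.8% of all genes were. Limma called 0 at the adjusted threshold and 1 as higher at an unadjusted p under 0.05, where 3.01% and 10.7% of all genes were. Bub1, the kinase that recruits the other checkpoint proteins to the kinetochore, had signals of 1645, 1430 and 1707 on the fetal liver arrays of replicates 1, 2 and 3, against 1069, 1138 and 951 on the marrow arrays of replicates 1, 2 and 3 (this order of arrays is kept for every gene). The lowest fetal liver array thus lay above the highest marrow array, at a log2 change of 0.60 ± 0.22 (SE; limma adjusted p = 0.141). Bub3, the WD40 protein that docks BUB1 and BUBR1 at the kinetochore, had 5916, 5850 and 5581 in fetal liver MkP and 4832, 4700 and 4587 in marrow MkP. Both groups were tight and did not overlap, with a change of 0.30 ± 0.16 (limma adjusted p = 0.298). The other probe sets of Bub3 overlapped, the next brightest with 1379, 1377 and 1619 in fetal liver MkP and 1591, 719 and 739 in marrow MkP. Bub1b, which encodes the inhibitor BUBR1, and Mad2l1, whose product MAD2 binds and blocks CDC20, were also separated, with changes of 0.42 ± 0.23 and 0.29 ± 0.20. Ttk, the kinase MPS1 that starts checkpoint signalling, overlapped between tissues at a change of 0.10 ± 0.24.

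Of the 4 genes of the anaphase-promoting complex and its partners, 0 were separated, where 13.8% of all genes were separated as higher and 14.2% as lower. With 4 genes, a count of 0 is near these shares. At the adjusted threshold and at an unadjusted p under 0.05 limma called 0, where 3.01% and 10.7% of all genes were higher. The median change of the 4 genes was 0.19. Cdc20, the activator of the anaphase-promoting complex that the checkpoint restrains, had 4635, 3509 and 3163 in fetal liver MkP and 3376, 3261 and 2460 in marrow MkP. Its fetal liver replicate 3 lay below marrow replicates 1 and 2, and the change was 0.31 ± 0.22 (limma adjusted p = 0.450). Pttg1, which encodes securin, the inhibitor of separase, had 4527, 4318 and 4261 in fetal liver MkP and 2967, 4281 and 4111 in marrow MkP. Only marrow replicate 1 stood clearly below the other 5 arrays, and the change was 0.22 ± 0.19 (limma adjusted p = 0.551). Espl1, encoding separase itself, had a change of 0.16 ± 0.27. Fzr1, whose product CDH1 activates the complex in late mitosis and G1, had the lowest change of the 39 genes, at -0.23 ± 0.30 (limma adjusted p = 0.720).

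Kinetochore genes were positive throughout (9 of 9, median 0.30), and 3 were separated as higher, where 13.8% of all genes were. At the adjusted threshold limma called 0, and at an unadjusted p under 0.05 it counted 3 as higher, where 3.01% and 10.7% of all genes were. Cenph, a subunit of the constitutive centromere-associated network at the inner kinetochore, had 3249, 3475 and 3070 in fetal liver MkP and 1916, 2280 and 2017 in marrow MkP. Every fetal liver array lay above every marrow array, the means were 3265 ± 203 and 2071 ± 188 (SD, n = 3 each), and the change of 0.66 ± 0.19 fell short of the threshold (limma adjusted p = 0.0597). Spc24, a subunit of the NDC80 complex that binds microtubules, had 5715, 4705 and 4970 in fetal liver MkP and 3091, 3858 and 3582 in marrow MkP. These groups did not overlap either, at a change of 0.55 ± 0.18 (limma adjusted p = 0.0946). The other subunits of the same complex all overlapped between tissues, with changes of 0.30 ± 0.26 for Spc25, 0.15 ± 0.24 for Nuf2 and 0.05 ± 0.21 for Ndc80. Cenpk, a partner of CENP-H, was separated at 0.34 ± 0.18. Cenpa, the histone H3 variant that marks centromeres, had the largest change of the role, 0.74 ± 0.29, yet fetal liver replicate 1 at 1016 lay below marrow replicate 2 at 1071. The motor gene Cenpe (0.12 ± 0.22) and Cenpf (0.10 ± 0.27), whose product coats the outer kinetochore, overlapped.

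The chromosomal passenger complex corrects wrong attachments and later acts at the cleavage site. It divided into 2 separated and 2 overlapping genes (median change 0.40), where 13.8% of all genes were separated as higher. Of its genes, limma called 0 at the adjusted threshold and 2 as higher at an unadjusted p under 0.05, where 3.01% and 10.7% of all genes were. Aurkb, its kinase Aurora B, had 2811, 2823 and 2524 in fetal liver MkP and 1734, 1683 and 1602 in marrow MkP. The groups were far apart relative to their spread, with means of 2719 ± 169 and 1673 ± 66.7 (SD, n = 3 each), and the change of 0.70 ± 0.19 lay just outside the threshold (limma adjusted p = 0.0521). A second probe set of Aurkb was separated in the same direction, and both Aurkb probe sets are of kinds that can bind more than 1 transcript, so Aurkb has no value without such probe sets. Birc5, which encodes survivin, had 3276, 5736 and 6451 in fetal liver MkP and 3110, 2504 and 2519 in marrow MkP. Fetal liver replicate 1 was close to the marrow arrays and the other 2 well above them, and the change was 0.87 ± 0.26 (limma adjusted p = 0.0675). Without fetal liver replicate 1, Birc5 passed the threshold, at a change of 1.17 (limma adjusted p = 0.0105, between 0.0105 and 0.268 over all alternatives). Incenp, the scaffold of the complex, and Cdca8, which encodes borealin, overlapped at 0.11 ± 0.21 and 0.06 ± 0.16. Both of these also rest on such a probe set, and for Cdca8 the other 2 probe sets were separated: one read 1473, 1735 and 1899 in fetal liver MkP and 1166, 1281 and 1313 in marrow MkP.

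Spindle and centrosome genes had the highest median change of the 7 roles (0.49), with 4 of 8 separated and the 1 gene past the threshold. Over all genes, 13.8% were separated as higher and 3.01% passed the threshold as higher. Tpx2, which nucleates microtubules around chromosomes and activates Aurora A, had 4586, 4810 and 4759 in fetal liver MkP and 2865, 2765 and 2413 in marrow MkP. All 3 fetal liver arrays stood well above all 3 marrow arrays, with means of 4718 ± 118 and 2681 ± 237 (SD, n = 3 each), and Tpx2 rose by 0.82 ± 0.17 on the log2 scale (limma adjusted p = 0.0183). Leaving out 1 array ended the call in 3 of 6 fits of limma, with an adjusted p of 0.1001 when fetal liver replicate 2 was dropped, 0.0942 for fetal liver replicate 3 and 0.0527 for marrow replicate 3, while the change stayed between 0.74 and 0.87. It was also lost without the variance trend (limma adjusted p = 0.0915) and when the kept probe sets of a gene were averaged (0.147, at a change of 0.59). The second kept probe set of Tpx2 overlapped, with 1462, 1826 and 1733 in fetal liver MkP and 1551, 1953 and 705 in marrow MkP. Over all alternatives the limma adjusted p of Tpx2 ran between 0.0058 and 0.147.

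Aurka, the kinase Aurora A that TPX2 activates, had the largest change of the 39 genes but also a wide spread. Its signals were 1464, 3108 and 2826 in fetal liver MkP and 775, 874 and 1466 in marrow MkP. Fetal liver replicate 1 and marrow replicate 3 were nearly equal, so the groups overlapped, and the change was 1.23 ± 0.34 (limma adjusted p = 0.0541). Without fetal liver replicate 1 or without marrow replicate 3, Aurka passed the threshold, with changes of 1.57 and 1.51 (limma adjusted p = 0.0252 and 0.0378, between 0.0163 and 0.406 over all alternatives). Plk1, the Polo-like kinase of mitotic entry and spindle assembly, had 215, 1550 and 1474 in fetal liver MkP and 649, 473 and 829 in marrow MkP. Its fetal liver arrays lay on both sides of the marrow arrays, the change was 0.32 ± 0.65 (limma adjusted p = 0.828), and without fetal liver replicate 1 it was 1.25 (limma adjusted p = 0.0642, between 0.0642 and 0.960 over all alternatives). Without fetal liver replicate 2 or 3 the change of Plk1 was -0.17 or -0.13.

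Among the remaining spindle genes, Hmmr, a microtubule-binding protein of the spindle poles, was separated with 1378, 1866 and 2006 in fetal liver MkP and 1078, 626 and 1098 in marrow MkP (change 0.93 ± 0.29, limma adjusted p = 0.0812). Tacc3, which crosslinks spindle microtubules as a substrate of Aurora A, was separated at 0.54 ± 0.17 (limma adjusted p = 0.0900), while its 2 dimmer probe sets had lower means in fetal liver MkP and overlapped. Plk4, the master kinase of centriole duplication, was separated at 0.44 ± 0.20. Ckap2 and Nusap1, which encode microtubule-stabilising proteins, overlapped at 0.11 ± 0.31 and -0.10 ± 0.21. A dimmer probe set of Nusap1 was separated as higher in fetal liver MkP, with 166, 135 and 118, against 112, 83 and 98 in marrow MkP.

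**Figure D3:**
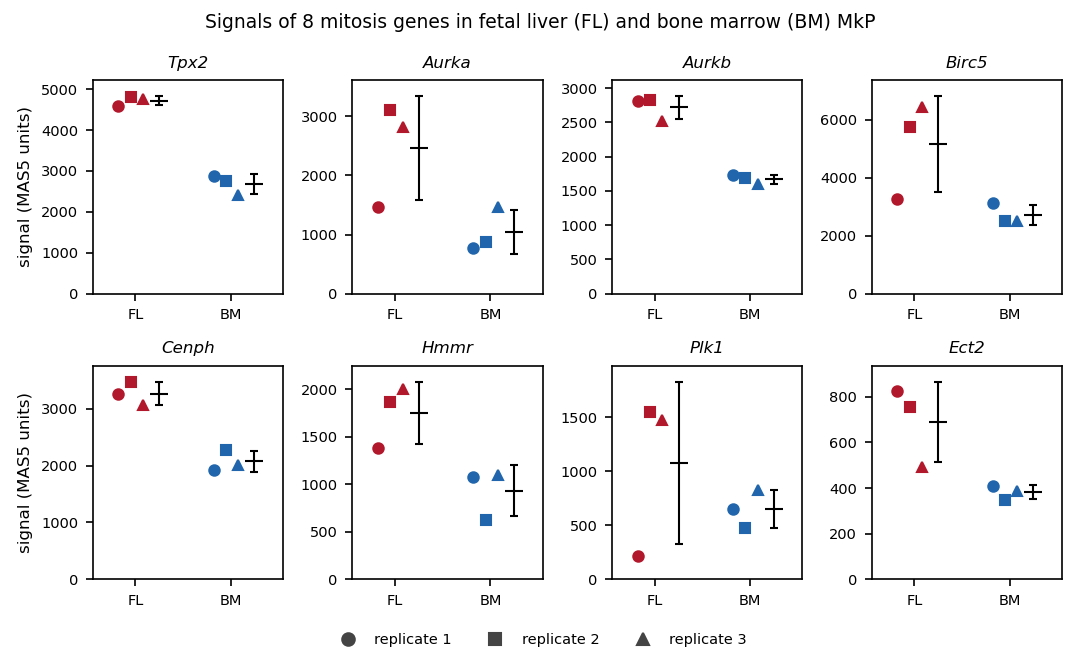
Deposited signal (vertical axis, MAS5 units, starting at 0) of Tpx2, Aurka, Aurkb, Birc5, Cenph, Hmmr, Plk1 and Ect2 in the 3 fetal liver (FL) and 3 bone marrow (BM) MkP arrays, with the mean and SD as bars and the replicate number as the marker. Tpx2 lies at 4586 to 4810 in fetal liver and 2413 to 2865 in marrow, while fetal liver replicate 1 of Plk1 lies at 215, below all other arrays.

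Of the 4 cytokinesis genes, 2 were separated as higher (median change 0.16), where 13.8% of all genes were. The limma test called 0 at the adjusted threshold and 1 as higher at an unadjusted p under 0.05, where 3.01% and 10.7% of all genes were. Ect2, the exchange factor that activates RhoA at the cleavage furrow, had 825, 755 and 493 in fetal liver MkP and 411, 349 and 386 in marrow MkP. Every fetal liver array was above every marrow array, with means of 691 ± 175 and 382 ± 30.9 (SD, n = 3 each), and the change was 0.82 ± 0.32 (limma adjusted p = 0.160). Low ECT2 is a known requirement of the later rounds of megakaryocyte endomitosis. Anln, which encodes anillin, the scaffold of the contractile ring, had 700, 650 and 858 in fetal liver MkP and 533, 636 and 611 in marrow MkP. These values were separated by a narrow margin, at a change of 0.30 ± 0.28 (limma adjusted p = 0.577). Racgap1, whose product partners ECT2 at the central spindle, overlapped at 0.03 ± 0.23. Prc1, the bundler of central spindle microtubules, overlapped at -0.18 ± 0.28, and marrow replicate 2 at 4027 stood above the other 5 arrays.

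Condensin genes had the smallest median change (0.14), with 3 positive and 2 negative genes. Of the 5, 1 (20.0%) was separated as higher, near the 13.8% of all genes. At the adjusted threshold limma called 0, and at an unadjusted p under 0.05 it counted 1 as higher, where 3.01% and 10.7% of all genes were. Ncaph, the kleisin subunit that closes the condensin I ring, had 1207, 1413 and 1437 in fetal liver MkP and 686, 821 and 1148 in marrow MkP. It was the separated gene of this role, at 0.64 ± 0.27 (limma adjusted p = 0.185). Ncapg, a HEAT-repeat subunit of condensin I, had 6027, 3888 and 4292 in fetal liver MkP and 3934, 4038 and 3793 in marrow MkP. Here fetal liver replicate 1 alone was well above the marrow arrays, and the change was 0.25 ± 0.20 (limma adjusted p = 0.523). Ncapd2, the other HEAT-repeat subunit, overlapped at -0.18 ± 0.22. The ATPase subunits Smc2 and Smc4, which both condensins share, overlapped at 0.14 ± 0.23 and -0.00 ± 0.17, although 2 further probe sets of Smc2 were separated, one with 3216, 3099 and 2790 in fetal liver MkP and 2378, 2363 and 2187 in marrow MkP.

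The genes did not vary together across arrays in a single way. In fetal liver replicate 1, 3 genes lay more than 1.5-fold below both other fetal liver arrays: Plk1 by 6.86-fold, Aurka by 1.93-fold and Birc5 by 1.75-fold. On the same array Incenp lay 1.59-fold above both others, while Espl1 lay 1.58-fold above on fetal liver replicate 2 and Ect2 1.53-fold below on fetal liver replicate 3. The mean deviation of the 8 spindle genes from their own 6-array mean was -0.03, 0.40 and 0.43 (log2) on fetal liver arrays 1, 2 and 3, against -0.23, -0.38 and -0.19 on marrow arrays. Over all 39 genes the fetal liver arrays were alike, at 0.14, 0.17 and 0.19, against -0.15, -0.15 and -0.20 on marrow arrays, and fetal liver replicate 1 was the highest of its tissue for 18 genes and the lowest for 12. Among marrow arrays, replicate 2 lay more than 1.5-fold below both others for Cenpf and Hmmr and above them for Prc1 and Cenpa, replicate 3 below them for Spc25 and above for Aurka, and replicate 1 for 0 genes. The 5′ to 3′ signal ratio of Gapdh, which falls when RNA or labelled copies are short, was 0.109, 0.449 and 0.432 on the fetal liver arrays and 0.099, 0.177 and 0.303 on the marrow arrays. The same ratio of Actb was 0.892, 1.020 and 0.971 on the fetal liver arrays and 1.079, 1.131 and 1.058 on the marrow arrays. For Actb all fetal liver arrays lay below all marrow arrays (exact two-sided permutation p = 0.1, the smallest possible here, and 0.2 after adjustment over 4 array measures), whereas for Gapdh the groups overlapped (exact two-sided permutation p = 0.3). The part of either ratio in the tissue differences, or in the low Plk1, Aurka and Birc5 signals, was not tested.

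**Figure D4:**
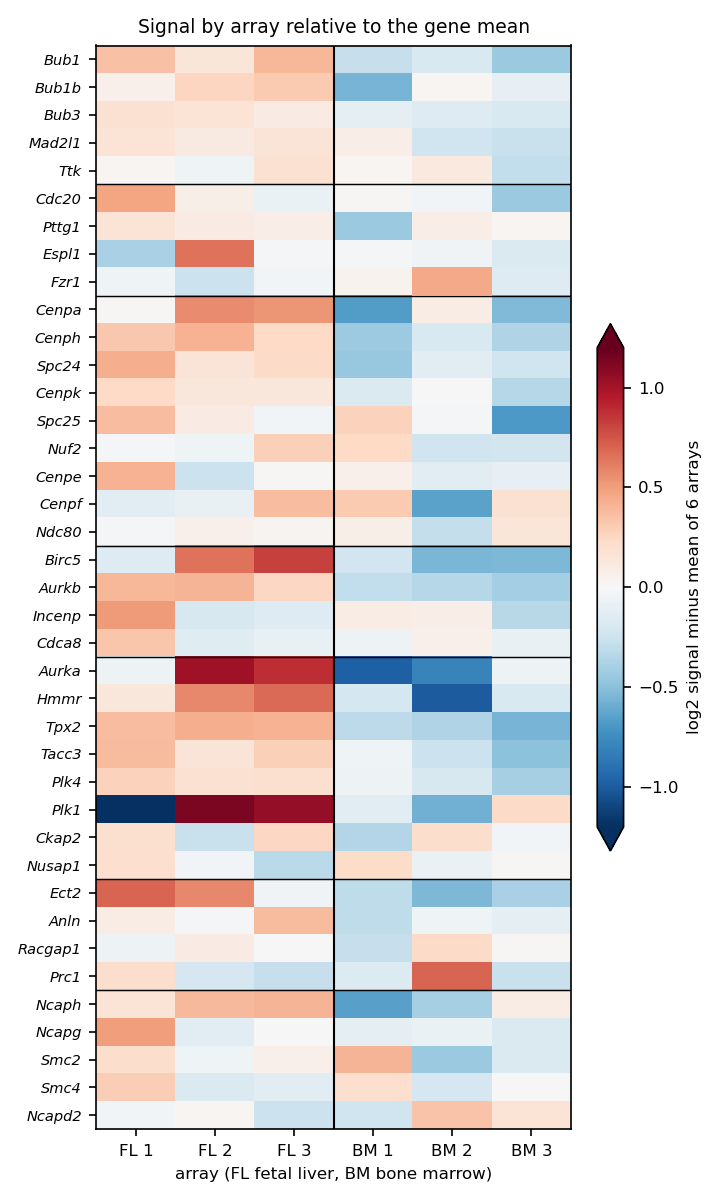
Log2 signal of each gene minus its mean over the 6 arrays (colour, red above and blue below the mean), with the fetal liver (FL) arrays in the left columns and the bone marrow (BM) arrays in the right ones, and horizontal lines between roles. Most rows are red on the left and blue on the right, and Plk1, Aurka and Birc5 are lower on FL 1 than on FL 2 and FL 3.

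Probe sets of the same gene did not always show the same change. The brightest probe sets of Bub3, Cdc20, Pttg1, Prc1 and Smc2 are, like those of Aurkb, Incenp and Cdca8, of kinds that can bind more than 1 transcript. The 39 genes had 92 probe sets, of which 88 passed the filter, and 28 genes had more than 1 that passed. Of the 49 further probe sets, 34 had a change of the same sign as the brightest one and 15 the opposite sign, with 10 separated as higher in fetal liver MkP and 1 as lower. The 1 lower probe set belonged to Spc25 and read 77, 123 and 132 in fetal liver MkP and 148, 296 and 211 in marrow MkP, against a brightest probe set that overlapped between the tissues. For Cenpa a second probe set read 517, 735 and 809 in fetal liver MkP and 807, 960 and 1009 in marrow MkP, opposite in sign to the brightest one.

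Outside the 39 genes, 116 of 118 further listed mitosis genes were tested. At the adjusted threshold limma called 2 of the 116 as higher in fetal liver MkP (Myh10 and Haus1), where 3.01% of all genes were. It called 0 as lower, where 4.76% of all genes were. At an unadjusted p under 0.05 it counted 15 as higher and 3 as lower, where 10.7% and 12.1% of all genes were. The median change of the 116 genes was 0.17. Of them, 22 (19.0%) were separated as higher, against 13.8% of all genes, and 7 as lower, against 14.2%. By role, the medians were 0.33 for 26 other kinetochore genes, 0.30 for 22 checkpoint and anaphase-promoting complex genes, 0.10 for 18 cohesin and condensin genes, 0.07 for 32 spindle genes and -0.05 for 18 cytokinesis genes. In the cytokinesis list, which also holds the proliferation gene Mki67, 6 of 18 genes had positive changes, where 50.5% of all genes were positive.

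Myh10, which encodes the heavy chain of nonmuscle myosin IIB, a motor of the contractile ring that is silenced when megakaryocytes switch to endomitosis, had 1756, 1967 and 1501 in fetal liver MkP and 187, 200 and 168 in marrow MkP. The groups lay far apart, with means of 1741 ± 234 and 185 ± 16.3 (SD, n = 3 each), and Myh10 rose by 3.21 ± 0.29 on the log2 scale (limma adjusted p = 1.86e-04, and between 1.10e-04 and 0.00247 over all alternatives). Haus1, a subunit of the augmin complex that branches microtubules within the spindle, had 2457, 2219 and 2639 in fetal liver MkP and 954, 1116 and 1667 in marrow MkP. It rose by 1.004 ± 0.25 (limma adjusted p = 0.0377), and the call was lost without fetal liver replicate 1, 2 or 3 (0.0909, 0.109 and 0.155), without marrow replicate 1 or 2 (0.0898 and 0.0798) and without the variance trend (0.107). The other nonmuscle myosin gene, Myh9, which was picked after its values were seen, had 12865, 10884 and 11594 in fetal liver MkP and 14969, 16852 and 16190 in marrow MkP, at a change of -0.44 ± 0.14 (limma adjusted p = 0.0887). Its arrays were separated in the direction opposite to those of Myh10.

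For general markers of cycling cells, the brightest probe sets overlapped between the tissues. Mki67, which encodes the proliferation antigen Ki-67, had 19982, 13550 and 13999 in fetal liver MkP and 20551, 18544 and 17040 in marrow MkP. Its change was -0.26 ± 0.18 (limma adjusted p = 0.433), and -0.0078 under median centring. Fetal liver replicate 1 lay inside the range of the marrow arrays and the other 2 below it. Top2a, the topoisomerase that untangles sister chromatids, had 6331, 6271 and 6754 in fetal liver MkP and 4879, 6648 and 4934 in marrow MkP, at 0.25 ± 0.18 (limma adjusted p = 0.458). A dimmer probe set of Top2a was separated in the opposite direction, with 382, 283 and 204 in fetal liver MkP and 501, 3150 and 420 in marrow MkP. Arhgef2, which encodes the RhoA exchange factor GEF-H1, also known from megakaryocyte endomitosis, had 2045, 1341 and 1275 in fetal liver MkP and 2802, 2874 and 1954 in marrow MkP. The groups overlapped through fetal liver replicate 1 and marrow replicate 3, at -0.72 ± 0.26 (limma adjusted p = 0.124). A dimmer probe set of Arhgef2 was separated as lower in fetal liver MkP, with 527, 723 and 655, against 993, 1651 and 888 in marrow MkP. Rhoa itself had 10059, 10618 and 9538 in fetal liver MkP and 12918, 8530 and 10035 in marrow MkP, with overlap at -0.04 ± 0.18 (limma adjusted p = 0.931), a sign that turned under median centring (0.21). Another probe set of Rhoa was separated as lower in fetal liver MkP, with 7590, 8284 and 8444, against 9499, 9557 and 10508 in marrow MkP.

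**Figure D5:**
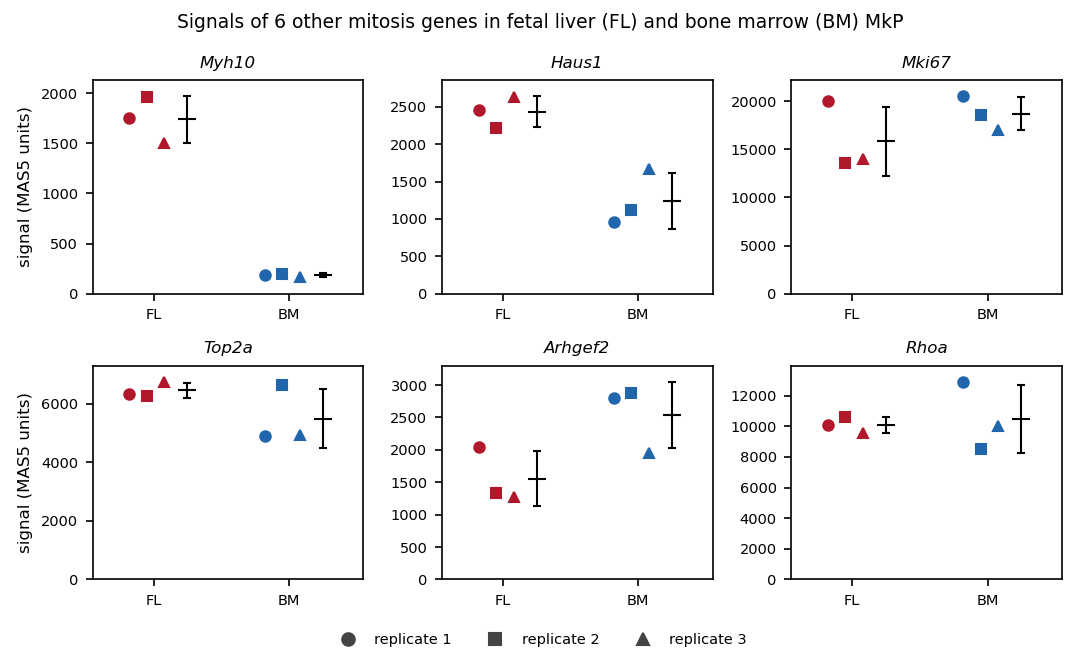
Deposited signal (vertical axis, MAS5 units, starting at 0) of Myh10, Haus1, Mki67, Top2a, Arhgef2 and Rhoa in the 3 fetal liver (FL) and 3 bone marrow (BM) MkP arrays, with the mean and SD as bars and the replicate number as the marker. Myh10 lies at 1501 to 1967 in fetal liver and 168 to 200 in marrow, whereas the groups of Mki67, Top2a, Arhgef2 and Rhoa overlap for the probe sets drawn.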

How the data were processed

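Gene expression was measured in 6 MkP samples, 3 from fetal liver and 3 from adult bone marrow, grouped by their labels. Deposited values were intensity signals of 45101 probe sets (64 controls) from MAS5, per the submitters' processing notes, whose version and settings no source used here gives. Probe sets were named through GEO's platform annotation. Signals became log2(signal + 2.87), 2.87 being the 10th percentile of all signals, without further scaling. Probe sets with a mean above the 40th percentile were kept (27022), and the brightest stood for each gene (11625 genes). Groups were compared with limma 3.58.1 in R 4.3.3 (lmFit, eBayes with a variance trend, Benjamini-Hochberg over all genes), checked on simulated data. A signal above that array's highest of 27 bacterial controls (22.2 to 35.1) was called above background. The number of arrays limits precision. The members and the other lists were chosen with earlier results of these data known. Signals are given for each gene past the threshold, for the 2 genes with the smallest p in each role, for Mki67, Top2a, Arhgef2 and Rhoa, and elsewhere where arrays or probe sets stood apart. Alternatives covered offset, floor, quantile normalization, median centring, filters, variance trend, probe set choice, the replicate block and leaving out each array.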

Additional observations from a re-analysis of the deposited data

How the results depend on the processing

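With 3 arrays a group, the calls near the threshold changed with single arrays and with scaling. Against 1 of the 39 genes past the threshold as higher in fetal liver MkP, there were 3 with an offset of 16, 3 with a floor at the highest bacterial control, 9 with median centring, 2 with a filter at the 60th percentile and 0 without the variance trend (limma), and between 0 and 3 when an array was left out (3 without fetal liver replicate 1, 0 without fetal liver replicate 2 or 3). No setting called any of them as lower, where limma gave 0 at an unadjusted p under 0.05 with the settings of the report. With averaged probe sets the 1 gene past the threshold was Cenph and not Tpx2. Cenph had only 1 probe set, so its change stayed at 0.66, and its SE went from 0.19 to 0.16 in the new fit. The median change of 0.30 became 0.23 with quantile normalization, 0.55 with median centring and 0.21 with averaged probe sets, and ran between 0.22 and 0.32 without single arrays. Over all genes, 350 were higher, against 393 with an offset of 16, 412 with the floor and 298 with the 60th percentile filter. There were 897 with median centring, 166 without the variance trend and between 117 and 313 without single arrays. As lower, 553 of all genes passed, and between 316 and 439 without single arrays. Of the other mitosis genes, 2 were higher: 8 with median centring, 1 without the variance trend, and 1 to 2 without single arrays; 0 were lower, against 1 with quantile normalization, 1 with averaged probe sets, and 0 to 1 without single arrays. Under median centring, chosen after seeing the data, 22 of the 39 genes and 2855 of all genes were separated as higher, and 0 and 1023 as lower.

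Of 623 changes of the 39 genes recomputed under an alternative, 564 kept their sign and their side of the threshold, 21 passed it newly, 5 (all Tpx2) lost it and 33 changed sign. Median centring turned Fzr1 (0.024), Nusap1 (0.15), Prc1 (0.074), Ncapd2 (0.073), Smc4 (0.25) and, outside the 39 genes, Rhoa (0.21). Quantile normalization turned Smc4 (0.039). Averaging probe sets turned Nusap1 (0.20), Smc4 (0.0050), Cenpf (-0.0017), Cenpk (-0.092), Spc25 (-0.32), Tacc3 (-0.0035), Racgap1 (-0.14) and, outside the 39 genes, Top2a (-0.69). Without single arrays the sign turned within these ranges: Ttk -0.022 to 0.19, Espl1 -0.12 to 0.40, Cenpe -0.065 to 0.27, Cenpf -0.20 to 0.28, Ndc80 -0.080 to 0.13, Incenp -0.12 to 0.24, Cdca8 -0.087 to 0.15, Plk1 -0.17 to 1.25, Nusap1 -0.23 to 0.034, Ckap2 -0.033 to 0.28, Racgap1 -0.11 to 0.14, Prc1 -0.36 to 0.13, Smc2 -0.043 to 0.38, Smc4 -0.15 to 0.095 and Rhoa -0.18 to 0.12. The cause was not tested.

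The labels number the replicates in both tissues. Same-numbered samples deviated together with correlations of 0.15, -0.02 and 0.08, against -0.15 to 0.10 for samples of unlike number. Correlations this small cannot decide whether the numbers pair the samples. With the replicate number as a block, 5 of the 39 genes were higher (Aurka, Aurkb, Cenph, Tacc3 and Tpx2) and 4 of the other mitosis genes higher and 1 lower. Calls rose over all genes too, to 522 higher and 688 lower, against 350 and 553 without the block.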
